A study of Mus musculus with 6 samples.

Results

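The 8 genes described here are Hmgcs1, Idi1, Fdps, Fdft1, Sqle, Lss, Cyp51 and Insig1. Each was taken by its symbol from the deposited table, where each symbol has 1 row, out of 57010 genes in all. The first 7 code for enzymes of cholesterol synthesis, and Insig1 codes for a membrane protein that holds the pathway's activator back. RNA was sequenced from skin of 6 mice at the end of a diabetic ulcer experiment, 1 library per mouse. The drug came in a gel on the skin. It was CST, presumably the somatostatin-like peptide cortistatin of the series title, in 3 mice. For the other 3 mice it was Yoda1, a synthetic opener of the mechanosensitive channel Piezo1. All 6 mice are labelled WT, the labels give neither strain nor age, and skin without either drug was not analysed here, so each difference below sets one drug against the other.

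Cells make cholesterol from acetyl-CoA through mevalonate, isoprenoid units and squalene, and the ring-closed sterol is then trimmed and reduced. The transcription factor SREBP-2 switches most enzymes of the route on when the endoplasmic reticulum is short of sterol. When sterol is plentiful, Insig proteins hold SREBP and its escort Scap in that membrane, and the Insig1 gene is itself an SREBP target. In epidermis, cholesterol made by keratinocytes becomes part of the lipid layers of the stratum corneum, and sebaceous glands make sterols for sebum.

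SREBP works beside NF-Y, which binds CCAAT boxes, and Sp1, which binds GC boxes, so the stretches before the transcription starts are shown for an early enzyme, a late enzyme and the regulator. RefSeq promoter windows on GRCm38.p6 matched 5 of the 8 genes: Hmgcs1, Idi1, Lss, Cyp51 and Insig1. The windows are cut at the GENCODE M21 start of the gene where that lies further upstream, and are printed 5′ to 3′ on the gene's strand. Capitals mark matches, on either strand, to the sterol element letters TCACNCCAC, the NF-Y box, which reads CCAAT, and the Sp1 box, which reads GGGCGG. On the opposite strand the NF-Y box reads ATTGG. The Sp1 box there reads CCGCCC. No matches shared a base.
Hmgcs1, chr13:119690101-119690350, plus strand: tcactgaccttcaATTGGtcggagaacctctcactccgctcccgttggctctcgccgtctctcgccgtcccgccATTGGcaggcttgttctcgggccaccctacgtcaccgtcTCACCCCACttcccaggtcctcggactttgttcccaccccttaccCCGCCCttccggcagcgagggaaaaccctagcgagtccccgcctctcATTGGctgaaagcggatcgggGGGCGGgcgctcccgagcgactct
Lss, chr10:76531355-76531587, plus strand: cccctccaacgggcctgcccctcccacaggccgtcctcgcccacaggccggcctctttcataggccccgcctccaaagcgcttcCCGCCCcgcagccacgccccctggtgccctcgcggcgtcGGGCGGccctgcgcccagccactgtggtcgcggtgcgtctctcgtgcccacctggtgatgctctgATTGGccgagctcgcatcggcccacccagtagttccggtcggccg
Insig1, chr5:28071162-28071362, plus strand: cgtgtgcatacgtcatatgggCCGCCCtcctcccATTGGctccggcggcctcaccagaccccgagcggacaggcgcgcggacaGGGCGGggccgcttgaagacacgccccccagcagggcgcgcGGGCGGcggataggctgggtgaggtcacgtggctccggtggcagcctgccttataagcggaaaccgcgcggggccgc

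The Hmgcs1 stretch held 1 sterol element match, whose first base lies 137 bases before the RefSeq start, with 3 CCAAT boxes and 2 Sp1 boxes. Over the full 250 bases before the RefSeq start, a CCAAT box stood in 5 of the 5 member windows, against 33.8% of all 32851 windows. It stood in 11 of 16 windows (68.8%) of the other synthesis enzymes. The Sp1 box stood in 5 of 5 member windows and 81.2% of the windows of the other enzymes, against 32.7% of all windows. Cut at the GENCODE M21 start, the Idi1 window held 0 CCAAT boxes and 0 Sp1 boxes, and the Cyp51 window held 0 CCAAT boxes. The sterol element letters stood in 1 of 5 member windows and in 0 of the 16, against 1.05% of all windows. These are letter matches in 1 window per start, not measured binding sites.

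The libraries held 23791352 to 29620526 reads, recovered from the steps of the deposited FPKM values, a level corrected for gene length and depth. Keratinocyte markers marked the tissue in every library: all 18 with a row were above 0, and Krt14 ranged from 5835 to 14601 FPKM. The labels also call the samples keratinocytes. Fibroblast, macrophage, sebaceous and skeletal muscle markers were present as well, with Col1a1 between 659 and 3528 FPKM, so the libraries are treated as whole skin. CST mouse 1 and Yoda1 mouse 3 stood apart by a share of mitochondrially encoded transcripts of 6.72% and 7.61%, against 3.25% to 3.81% in the other 4 libraries.

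None of the 8 genes differed between CST-treated and Yoda1-treated skin beyond the spread between mice. The test was limma on log2(FPKM + 1) over the 14588 genes whose mean reached 1 FPKM, with Benjamini-Hochberg adjustment, and all 8 genes passed that filter. It called 0 of the 8, where it called 0% of all tested genes. Of the 8, 0 had an unadjusted p under 0.05, against 4% (584) of all tested genes. By limma-voom on the recovered reads 0 genes were called as well. In 7 of the 8 the change was above 0, as in 47.2% of all tested genes. Their median log2 change was 0.16, CST minus Yoda1, beside -0.01 over all tested genes, and without CST mouse 3 it was 0.05. The labels call the mice of a group separate animals, and with 3 per group the intervals given below are wide.

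Hmgcs1, chromosome 13, 119690379 to 119708260 on GRCm38, codes for the cytosolic HMG-CoA synthase that opens the mevalonate route. By mouse number it measured 128, 130 and 167 FPKM with CST and 132, 114 and 125 with Yoda1, and later values keep that order. CST mouse 3 was highest, and the other 5 libraries lay close together. The log2 change was 0.19, with a 95% interval of -0.28 to 0.66 (SE 0.20, adjusted p = 1.000 by limma), and without CST mouse 3 the change was 0.07.

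Idi1, chromosome 13, 8885501 to 8892451, codes for the isomerase that interconverts the pair of basic isoprenoid units. It measured 37.8, 27.4 and 32.4 FPKM in the CST mice and 32.8, 20.9 and 73.0 in the Yoda1 mice. The highest and the lowest value both came from the Yoda1 group, which spanned the whole CST range. Its mean was 32.5 ± 5.18 (SD, n = 3) in CST skin and 42.2 ± 27.3 in Yoda1 skin. Idi1 was the 1 member with a change below 0, a log2 change of -0.19 with an interval of -1.16 to 0.78. Without Yoda1 mouse 3 the change was 0.29. The pseudogene Idi1-ps1 had a mean of 1.33 FPKM, and the sources used here do not say how reads matching both were counted.

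Fdps, chromosome 3, 89093588 to 89101959, joins the isoprenoid units into farnesyl diphosphate, from which the sterol and the protein prenylation branches part. It measured 91.7, 133 and 167 FPKM in the CST mice and 91.3, 105 and 120 in the Yoda1 mice. The lowest values of both groups were nearly equal, and CST mice 2 and 3 lay above all Yoda1 mice. The log2 change was 0.27 (interval -0.34 to 0.88, SE 0.26), and without CST mouse 3 it was 0.07. Exons of Fdps overlap those of the protein-coding gene Gm43738 on the same strand, for which no level was available here.

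Fdft1, chromosome 14, 63145150 to 63179578, codes for squalene synthase, the first enzyme committed to sterols. It measured 46.1, 56.9 and 78.7 FPKM in the CST mice and 40.5, 45.7 and 45.9 in the Yoda1 mice. This was the 1 member of 8 whose groups did not overlap, by the narrow gap between 46.1 and 45.9. Groups did not overlap in 6.59% of all tested genes, with CST higher in 4.52% and Yoda1 higher in 2.08%. The means were 60.6 ± 16.6 and 44.0 ± 3.10, a log2 change of 0.42 (interval -0.13 to 0.97, SE 0.24, adjusted p = 1.000 by limma). Without CST mouse 3 the change was 0.22. Exons of Fdft1 overlap those of Ctsb on the other strand, and the sources used here do not say whether counting used strand. Unless it did, reads from the part where the exons overlap cannot be told apart. Ctsb measured 854, 879 and 694 FPKM in the CST mice and 1530, 1470 and 625 in the Yoda1 mice.

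Sqle, chromosome 15, 59315077 to 59331192, codes for squalene epoxidase, the oxygen-requiring step before ring closure. It measured 49.9, 45.9 and 57.6 FPKM in the CST mice and 38.1, 32.5 and 82.1 in the Yoda1 mice. As with Idi1, Yoda1 mouse 3 was highest and Yoda1 mouse 2 lowest. The means were nearly the same, 51.2 ± 5.93 and 50.9 ± 27.1, and the log2 change was 0.12 (interval -0.68 to 0.92). Without Yoda1 mouse 3 the CST values all lay above the remaining Yoda1 values, and without that library the groups did not overlap in 28.1% of all tested genes.

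Lss, chromosome 10, 76531588 to 76557138, codes for lanosterol synthase, which folds squalene epoxide into the first sterol. It measured 15.6, 17.9 and 28.0 FPKM in the CST mice and 16.8, 16.7 and 23.1 in the Yoda1 mice. Mouse 3 was the highest of each group, and the other 4 libraries lay between 15.6 and 17.9. The log2 change was 0.09 (interval -0.54 to 0.72), and without CST mouse 3 it was -0.15.

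Cyp51, chromosome 5, 4081145 to 4104746, codes for the cytochrome P450 that removes a methyl group from lanosterol. It measured 192, 185 and 281 FPKM in the CST mice and 166, 189 and 200 in the Yoda1 mice. CST mouse 3 was far above the other 5 libraries, which lay between 166 and 200. The log2 change was 0.22 (interval -0.32 to 0.76), and without CST mouse 3 it was 0.03. Its exons overlap those of Akap9 on the other strand, which had a mean of 19.9 FPKM.

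Insig1, chromosome 5, 28071363 to 28078662, is the regulator among the 8. It measured 28.3, 33.7 and 28.7 FPKM in the CST mice and 38.0, 23.7 and 26.6 in the Yoda1 mice, so the Yoda1 values enclosed the CST values. The log2 change was 0.06 (interval -0.48 to 0.60). On the linear scale of FPKM + 1 that interval runs from 0.72 to 1.52 times the Yoda1 level. For the enzymes the intervals reached from 0.45 times for Idi1 to 1.96 times for Fdft1.

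**Figure D1:**
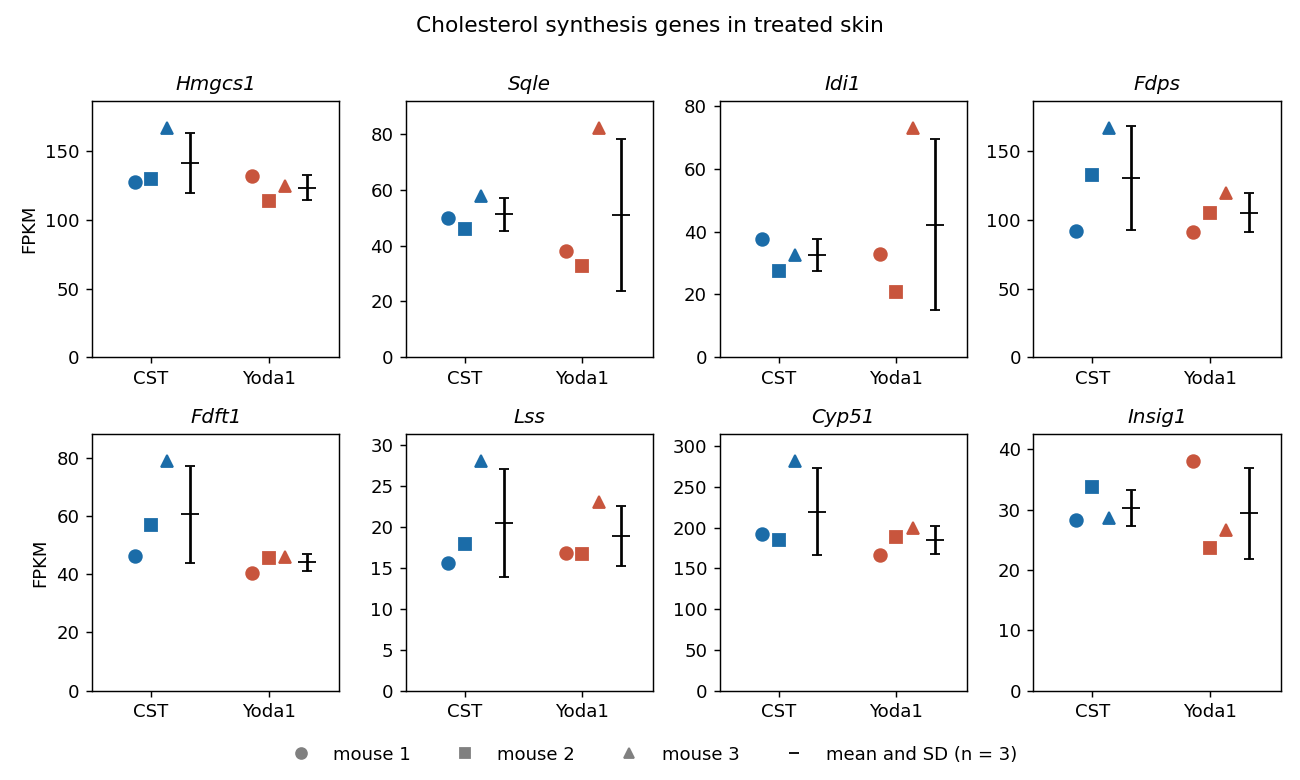
FPKM (vertical axes from 0) of the 8 genes in each mouse of the CST and Yoda1 groups; symbols mark the mouse number, and the black bar is the mean with its SD (n = 3). Mouse 3 of the CST group is highest for Hmgcs1, Fdps, Fdft1, Lss and Cyp51, and mouse 3 of the Yoda1 group is highest for Idi1 and Sqle, at 73.0 and 82.1 FPKM.

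**Figure D2:**
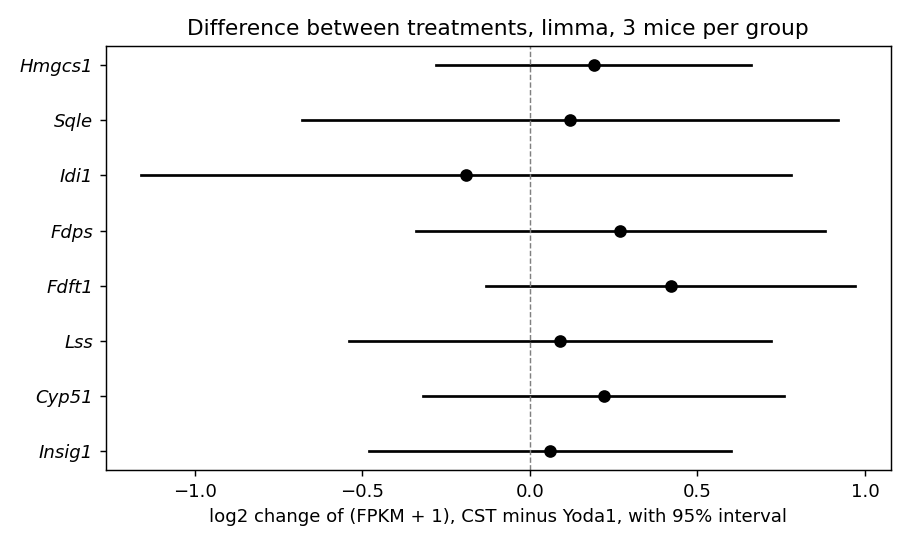
log2 change of FPKM + 1 (horizontal axis, CST minus Yoda1) for each gene, with the point as limma's estimate and the line as its 95% interval. Every interval spans 0, among them the widest, Idi1 at -1.16 to 0.78, and that of Fdft1 at -0.13 to 0.97.

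The plot of values by mouse shows a wide spread within groups. The recovered reads behind the values ran from 864 for Idi1 in Yoda1 mouse 2 to 12088 for Cyp51 in CST mouse 3. Counting error at the lowest count of each gene was 1.21% to 3.40% of the value. The coefficient of variation between the mice of a group was 7.03% to 64.6%, above the counting error in each gene and group. The genes divided by where that spread lay. For Idi1 and Sqle it was 64.6% and 53.4% in the Yoda1 group and 15.9% and 11.6% in the CST group. For Fdps, Fdft1 and Cyp51 it was 28.9%, 27.4% and 24.4% in the CST group and 13.5%, 7.03% and 9.48% in the Yoda1 group.

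FPKM is scaled by gene length, so levels can be ordered across the genes. Cyp51 stood first with a mean of 202 ± 40.2 FPKM (SD over the 6 libraries), then Hmgcs1 at 133 ± 18.0 and Fdps at 118 ± 28.9. Fdft1 (52.3 ± 14.0), Sqle (51.0 ± 17.6), Idi1 (37.4 ± 18.4), Insig1 (29.8 ± 5.17) and Lss (19.7 ± 4.85) followed. Fdps and Fdft1 were the 1 pair of neighbours in that order whose ranges did not meet. Cyp51 lay above Hmgcs1, Sqle above Idi1 and Insig1 above Lss in each of the 6 libraries although their ranges overlapped. Fdft1 and Sqle (Fdft1 higher in 4 of 6) and Idi1 and Insig1 (Idi1 higher in 3 of 6) had no fixed order. Cyp51 alone took 28.8% to 34.6% of the summed FPKM of the 8 genes, and Lss took 2.65% to 3.33%.

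The map of values by library shows which genes were high in the same mice. Hmgcs1, Fdps, Fdft1, Lss and Cyp51 were highest in CST mouse 3, which was the highest library for 15.7% of all tested genes. Their pairwise Pearson correlation of log2(FPKM + 1) ran from 0.68 for Hmgcs1 with Fdps to 0.92 for Fdps with Fdft1. Sqle and Idi1 were highest in Yoda1 mouse 3, the highest library for 21.1% of all tested genes, and had a correlation of 0.90. Idi1 had correlations of -0.15 with Fdft1 to 0.39 with Lss among those 5 genes. Sqle had 0.28 with Fdft1 to 0.67 with Lss, so it did not separate cleanly from them. The ratio of Idi1 to Fdft1 was 1.59 in Yoda1 mouse 3 and 0.411 in CST mouse 3. Insig1 had correlations of -0.36 to 0.29 with the 7 enzymes. These correlations describe 6 shared libraries of 2 groups and were not tested.

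**Figure D3:**
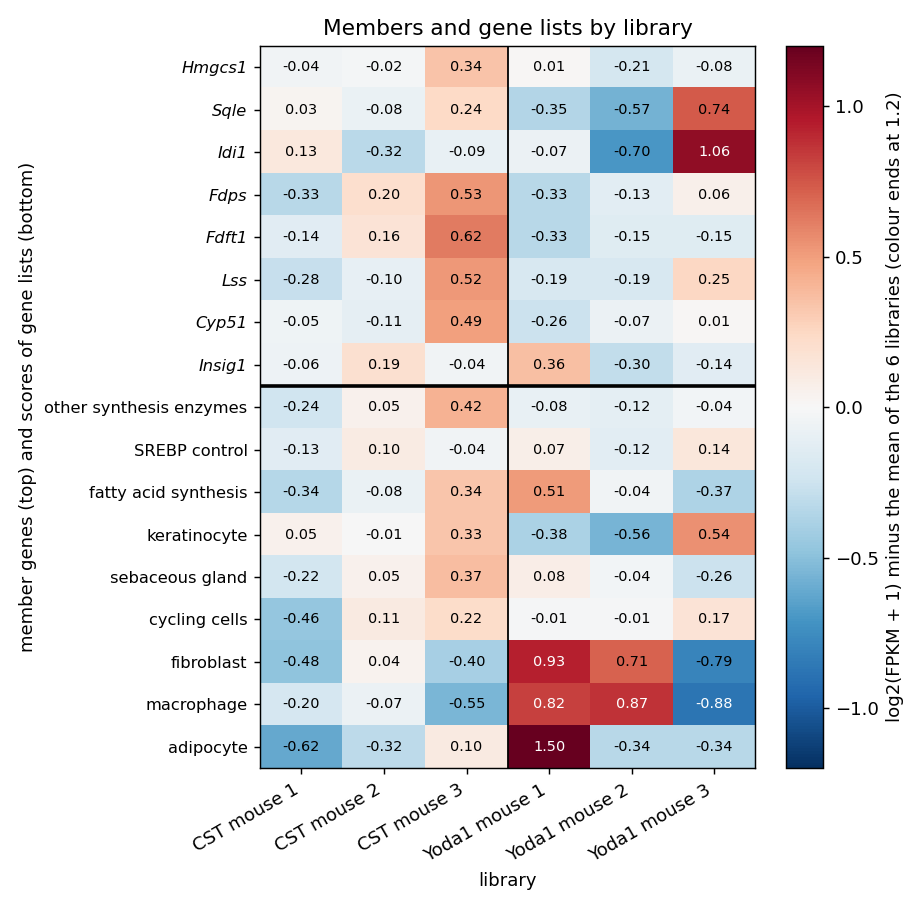
log2(FPKM + 1) minus its mean over the 6 libraries, for the 8 genes (top) and for the mean score of 9 gene lists (bottom), by library; red is above and blue below the gene's own mean, with the colour ending at 1.2. CST mouse 3 is red for 6 of the 8 genes, and Yoda1 mouse 3 reaches 1.06 for Idi1 and 0.74 for Sqle.

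Markers of several skin cell types varied over the same libraries, and their part in the results above was not tested. The keratinocyte score, the mean log2(FPKM + 1) of 18 markers, was 9.10, 9.04 and 9.38 with CST and 8.67, 8.49 and 9.59 with Yoda1. That order of libraries, with Yoda1 mouse 3 first and Yoda1 mouse 2 last, is the order of Sqle. The summed FPKM of the list ran from 24461 to 31328 in CST and from 18096 to 42170 in Yoda1 skin. The sebaceous score was highest in CST mouse 3, at 5.34 against 4.71 to 5.05 in the others, and its 11 markers summed to 838 to 1708 FPKM in CST and 990 to 1014 in Yoda1 skin. The 13 hair shaft genes summed to 7.65, 181 and 594 FPKM with CST and to 20.4, 28.6 and 3.69 with Yoda1, with 2 of them at 0 in CST mouse 1 and 7 in Yoda1 mouse 3. Of the 9 hair shaft genes tested, 0 passed and 9 had a change above 0, with a median of 2.06. An unadjusted p under 0.05 by limma was found for 2 of the 9, against 4% of all tested genes. Fibroblast and macrophage scores were lowest in Yoda1 mouse 3, at 7.31 and 5.72. The 8 fibroblast markers summed to 3869 to 6260 FPKM in CST and 3667 to 11696 in Yoda1 skin, and the 9 macrophage markers to 1049 to 1435 and 839 to 3642. Adipocyte markers, 9 in all, summed to 1114, 956 and 1061 FPKM with CST and 2827, 1094 and 1283 with Yoda1. Their score was highest in Yoda1 mouse 1, at 7.42 against 5.30 to 6.02 in the others. Of these 9, 0 passed the test and 1 had a change above 0, with a median of -0.54. The 14 skeletal muscle genes summed to 8287 to 14843 FPKM in CST and 130 to 6079 in Yoda1 skin. Of these 14, 0 passed the test and 14 had a change above 0, with a median of 3.98. All 14 had an unadjusted p under 0.05 by limma, against 4% of all tested genes. In 13 of them the groups did not overlap, against 6.59% of all tested genes. No keratinocyte, sebaceous, fibroblast, macrophage, adipocyte or muscle marker with a row was at 0 in any library. Fewer cells of a type and less RNA per cell cannot be told apart in these bulk samples. Neutrophil markers summed to 11255, 1904 and 1819 FPKM with CST and 1658, 759 and 4142 with Yoda1. Of the 9 tested, 0 passed, 9 had a change above 0, with a median of 0.94, and 3 had groups that did not overlap. Groups did not overlap in 6.59% of all tested genes. Ly6g, with a mean too low to be tested, was at 0 in Yoda1 mouse 1. The members' values with a score as a covariate depended on the score. With the keratinocyte score the log2 change of Sqle was -0.18 and that of Fdft1 0.36. The change of Fdft1 was 0.30 with the sebaceous, 0.27 with the skeletal muscle and 0.75 with the neutrophil score. The skeletal muscle score was 7.53 to 8.58 with CST and 2.32 to 7.02 with Yoda1. As it did not overlap between the groups, that fit can hardly separate it from treatment. The SE of Fdft1 was 0.44 there and 0.24 without a covariate. The members' median was 0.12, 0.13, 0.29 and 0.32 with the keratinocyte, sebaceous, muscle and neutrophil scores. limma called 0 of the 8 genes with any of the 4 scores.

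Of 15 other enzymes of the synthesis route, 0 passed the test in either direction, 14 had a change above 0, and the median log2 change was 0.15. In 11 of the 15 CST mouse 3 was highest, and in 4 Yoda1 mouse 3. In 8 of the 15 (53.3%) CST mouse 1 was lowest, as in 24.5% of all tested genes. The list's median was -0.04 without CST mouse 3 and 0.34 without CST mouse 1, and adjusting for the neutrophil score gave 0.51. Dhcr7, the reductase that makes cholesterol from its dehydro precursor, measured 54.0, 86.5 and 93.2 FPKM in the CST mice and 60.5, 49.6 and 64.9 in the Yoda1 mice, a log2 change of 0.38 (SE 0.26), which was 0.62 without CST mouse 1 and 0.23 without CST mouse 3. The deposited annotation gave the Reactome term for cholesterol biosynthesis to 7 of the 8 members, all but Insig1, and to 21 other genes. Of the 19 tested among those 21, 0 passed and 16 were above 0, with a median of 0.14. That median was 0.02 without CST mouse 3 and 0.28 without CST mouse 1. As 14 of the 19 are among the 15 enzymes above, the term adds little that is separate.

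Among the genes that control SREBP most changes were below 0. Of 9, 0 passed the test, 2 had a change above 0, and the median was -0.05. Srebf2, the gene of SREBP-2, measured 53.1, 78.7 and 81.5 FPKM in the CST mice and 58.2, 58.5 and 83.0 in the Yoda1 mice, so mouse 3 was highest in both groups (log2 change 0.09, SE 0.25). Srebf1, whose products mainly drive fatty acid synthesis, had a change of -0.22 (SE 0.26). The protease genes Mbtps2 and Mbtps1, which release SREBP from its membrane, had changes of -0.17 and -0.09. Insig2, the other Insig gene, lay between 77.8 and 93.6 FPKM and stood above Insig1 in every library.

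Sterol uptake and transport genes were measured as a further list. Of 14, 0 passed, 8 had a change above 0, and the median was 0.01. Vldlr, a lipoprotein receptor, had the smallest p of the list: it measured 15.1, 4.65 and 7.15 FPKM in the CST mice and 4.08, 2.11 and 3.90 in the Yoda1 mice. Its groups did not overlap, and CST mouse 1 was far above the rest (log2 change 1.08, SE 0.40, adjusted p = 0.951 by limma). Without CST mouse 1 its change was 0.67. Lipa, the lysosomal lipase that frees cholesterol from its esters, measured 20.9, 21.7 and 18.4 against 71.3, 33.5 and 20.2, a change of -0.82 (SE 0.41), or -0.34 leaving out Yoda1 mouse 1 and -1.23 leaving out Yoda1 mouse 3. Lrp1, a large endocytic receptor, had a change of -0.55, or -0.35 without Yoda1 mouse 1 and -0.83 without Yoda1 mouse 3. Gramd1c, a sterol carrier at membrane contacts, had one of 0.50, or 0.25 without CST mouse 3 and 0.32 without Yoda1 mouse 2. With library weights, of which Yoda1 mouse 1 had the largest (12.8), limma called 1348 of all 14588 tested genes. Lipa (-1.65, adjusted p = 0.0168) and Lrp1 (-0.75, adjusted p = 0.0417) were among them. Vldlr (0.44, adjusted p = 0.261) and Gramd1c (0.10, adjusted p = 0.782) were not, and their changes were smaller than without weights.

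Of 9 LXR receptor and efflux genes 0 passed and 3 were above 0 (median -0.12). Among them the exporter gene Abcg1 had a change of -0.38, or -0.11 leaving out Yoda1 mouse 1 and -0.82 leaving out Yoda1 mouse 3. With library weights limma called it (-0.82, adjusted p = 0.0288), as it did 1348 of all 14588 tested genes. Apoe, the apolipoprotein that macrophages secrete, had a change of -0.43, which was -0.15 without CST mouse 1 or Yoda1 mouse 2 and -0.92 without Yoda1 mouse 3. Of 9 tested esterification and oxysterol genes 0 passed and 5 were above 0 (median 0.13), with Cyp7b1 at -0.74 and Cyp39a1 at 0.45, both oxysterol hydroxylases. Without CST mouse 3 Cyp7b1 was at -0.45. Of 14 fatty acid synthesis genes 0 passed, 6 were above 0 and 8 below it, with changes from -0.47 to 0.31 (median -0.07). Those with the smallest p, the elongase gene Elovl6 and Mid1ip1, an activator of acetyl-CoA carboxylase, were both at 0.31. Of 14 genes of the non-sterol isoprenoid branch 0 passed and 7 were above 0, with Fntb at 0.24 and Pdss2 at 0.19. Without CST mouse 3 Mid1ip1 was at 0.11, Fntb at 0.07 and Pdss2 at 0.04, and without CST mouse 1 they were at 0.54, 0.51 and 0.41.

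Some genes outside the list followed the members' mean closely over the 6 libraries. The mean log2(FPKM + 1) of the 8 genes was 5.82, 5.90 and 6.24 in the CST mice and 5.77, 5.62 and 6.13 in the Yoda1 mice. The 5 genes most alike among 14580 were Lypd6b, Tom1l2, Gm4316, Cldn23 and Wfdc5, with Pearson r of 0.987 to 0.991. Cldn23 codes for a claudin, a family of tight junction proteins. It measured 11.1, 12.4 and 16.1 FPKM in the CST mice and 10.1, 9.65 and 14.9 in the Yoda1 mice. Among the 100 most alike stood 6 genes of the lists. They included the keratinocyte differentiation genes Krt1, Ivl and Flg, the sterol carrier gene Stard4 (r = 0.981) and Sult2b1, the sulfotransferase that makes cholesterol sulfate in epidermis. The median r was 0.62 for the 18 keratinocyte markers, 0.55 for the other synthesis enzymes, -0.75 for fibroblast and -0.80 for macrophage markers, and -0.07 over all genes compared. These r values describe 6 libraries across genes and were not tested.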

How the data were processed

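The table that the authors deposited lists 57010 genes in 6 libraries as FPKM, without read counts. The sources used here name no aligner, counter or strand setting; GRCm38 and mm10 stand as builds in the submitters' processing notes. Groups and mouse numbers came from the sample titles. Of 52029 gene identifiers found in GENCODE M21, 2.81% had a deposited start equal to that on GRCm38, so positions are those of GENCODE M21.

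Depth was recovered from genes under 2 kb with 1 read, and all 14588 tested genes then gave whole reads within 0.001 reads. Tested genes reached a mean of 1 FPKM, and the median held 631 reads per library. Groups were compared two-sided on log2(FPKM + 1) by limma 3.58.1 under R 4.3.3, with a mean-variance trend and no covariate, and p-values were adjusted by Benjamini-Hochberg (threshold 0.05). The method was run on simulated counts with the same spread setting for all genes and set changes larger than those of the members. That run does not show how the method performs on changes this small or on libraries of unlike spread. A pseudocount of 1 understates changes of low genes.

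The members and lists were chosen with earlier results of these data known, so lists are described by counts and medians without a test. Named genes are the 8 members, up to 4 per list with the smallest p, and the 6 most alike, of which some are not reported here. Insig2, the list genes among the 100 most alike, Ctsb, Akap9 and Idi1-ps1 were named after their values were seen. Gm43738, which had no value, was named for its overlap with Fdps. Alternatives covered pseudocount, filter, scaling, variance model, library weights, mouse number, single libraries, marker scores and limma-voom on recovered reads.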

Additional observations from a re-analysis of the deposited data

How the results depend on the processing

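Over 22 alternatives, 1 of them chosen after seeing the data, the members' median log2 change stayed between 0.05 and 0.38, and between 0.05 and 0.28 when 1 library was left out. Hmgcs1, Fdps, Fdft1 and Cyp51 kept a change above 0 in all 22. limma called 0 of the 8 genes in 21 alternatives. Library weights were 12.8 for Yoda1 mouse 1, 0.657 for Yoda1 mouse 2 and 0.193 for Yoda1 mouse 3. The Yoda1 side of that fit therefore rests mostly on mouse 1. With these weights limma called 2 of the 8, Fdps (0.55, adjusted p = 0.0454) and Fdft1 (0.55, adjusted p = 0.0425). It called 1348 of all 14588 tested genes, which include Lipa, Lrp1 and Abcg1. Insig1 was then at -0.20, and the cause was not tested. Leaving out 1 library gave 0 to 136 called genes over the whole table (136 without Yoda1 mouse 2 and 8 without CST mouse 2), 0 called members, and 1 to 3 members whose groups did not overlap: 2 without CST mouse 1 (19.3% of all genes did the same), 3 without Yoda1 mouse 1 (10.1%) and 2 without Yoda1 mouse 3 (28.1%). Without CST mouse 1 and Yoda1 mouse 3, the 2 libraries with a high mitochondrial share, the count was 4, where 45.3% of all genes did the same, and Idi1 was at 0.18. With 1 library left out the changes spanned 0 for Sqle (-0.13 to 0.52), Idi1 (-0.59 to 0.29), Lss (-0.15 to 0.25), Insig1 (-0.08 to 0.25), Srebf2 (-0.02 to 0.28), Srebf1 (-0.36 to 0.01) and Mbtps1 (-0.19 to 0.04). The sign also turned with the keratinocyte score as a covariate for Sqle (-0.18), Lss (-0.06) and Srebf2 (-0.04), and with the sebaceous score for Lss (-0.01). It turned with the skeletal muscle score, which did not overlap between the groups, for Idi1 (0.39, SE 0.69), Mbtps2 (0.25, SE 0.39) and Mbtps1 (0.13, SE 0.39). With the neutrophil score it turned for Sqle (-0.01), Insig1 (-0.01), Srebf1 (0.12), Mbtps1 (0.04) and Apoe (0.16). The cause was not tested. Same-numbered mice had correlations of deviations from the group mean of -0.0774, 0.208 and -0.197. Mice of unlike number had -0.343 to 0.344, so these values show no pairing by mouse number. With 3 mice per group they cannot exclude one. With mouse number as a block limma called 0 genes, and the members' median was 0.16.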
